A study of Saccharomyces cerevisiae with 6 samples.

Results

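Genes that regulate iron use and move iron inside the cell were read from arrays of the budding yeast laboratory strain S288C treated with paraquat (methyl viologen), a compound that passes electrons to oxygen and so makes superoxide. The set was defined by gene name and holds 8 genes: the regulators AFT1 and AFT2, the mRNA-decay factors TIS11 (also called CTH2) and CTH1, the mitochondrial carriers MRS3 and MRS4, and the vacuolar transporters CCC1 and SMF3. Of these, 7 had 1 probe each among the 6912 probes, and 6 had a value on all 3 arrays, among 5693 features tested. AFT1 was not analysed here, since no probe carried its name or gene identifier in the annotation used. TIS11 had no value on array 2, so it has 2 measurements and is outside the main test.

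Cultures grown at 25 °C in YPD, a rich glucose medium, received 35 ppm paraquat during exponential growth and were compared after 2 h with cultures grown for the same time without it. The design describes 3 hybridisations of independent biological samples, here arrays 1, 2 and 3, each read with a high and a low power scan. Treated cDNA carried Cy5 and untreated cDNA Cy3 on every array, so dye and treatment cannot be told apart. Every value below is a log ratio, read as log2 of the paraquat channel over the untreated one. The base and the direction are stated in no source used here and are likely from the order of the channels, and with the opposite direction every sign would turn. The log ratios hold no expression level, so the strain's markers could not be checked and no gene's level can be set against another's.

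Yeast cells sense iron through the iron-sulfur clusters made in mitochondria. When cluster signalling is low, the transcription factors Aft1 and Aft2 move to the nucleus and switch on genes of iron uptake and of iron release from the vacuole, the main iron store. One of their targets is TIS11, whose zinc-finger protein, like its paralog Cth1, binds AU-rich elements in mRNAs of iron-using proteins and speeds their decay. Mrs3 and Mrs4 carry iron across the inner mitochondrial membrane, Ccc1 loads iron into the vacuole, and Smf3 releases it. In high iron the factor Yap5 switches on CCC1, which lowers iron in the cytosol. Iron-sulfur clusters are among the known targets of superoxide.

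None of the 6 genes with 3 arrays passed a limma adjusted p of 0.05, and the arrays differed widely for most of them. The same threshold called 0.0351% of all 5693 features, 2 higher and 0 lower, so a count of 0 of 6 does not set these genes apart. At an unadjusted limma p under 0.05 AFT2 was the 1 gene of 6 to pass, where 10.8% of all features did. The mean log ratio lay above 0 for 5 of 6 genes, against 49.2% of all features, and the median of the 6 means was 0.11, against -0.0065 over all features. By array the tilt was smaller, with 4, 4 and 3 of the 6 genes above 0 on arrays 1, 2 and 3. The medians of the 6 genes on those arrays were 0.12, 0.24 and 0.0080. One gene of 6, MRS3, kept its sign on the 3 arrays, as 32% of all features did.

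**Figure D1:**
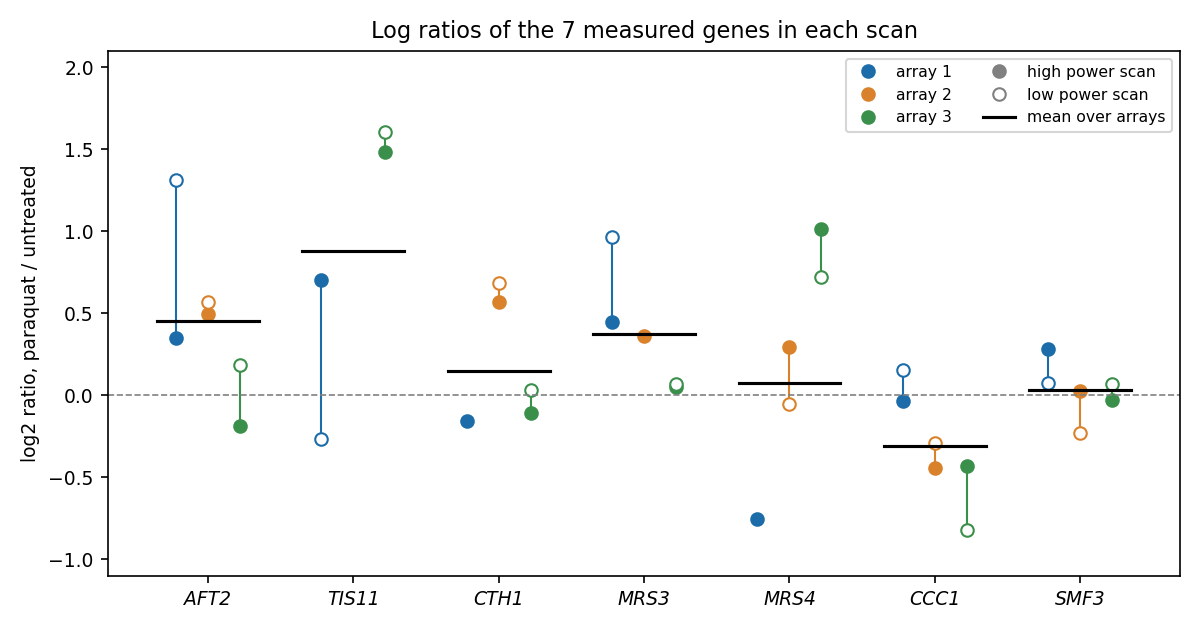
Log2 ratio of paraquat over untreated (vertical axis) for the 7 measured genes, with 1 point per scan, filled for high and open for low laser power, coloured by array. A vertical line joins both scans of an array and the black bar is the mean over arrays. TIS11 and MRS4 stand highest on array 3, at 1.55 and 0.87 after averaging scans, while AFT2 and MRS3 stand highest on array 1.

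AFT2 encodes the paralog of Aft1, with which it shares target genes of the iron regulon. Its log ratios were 0.83, 0.53 and -0.0026 on arrays 1, 2 and 3. Arrays 1 and 2 were thus above 0. Array 3 averaged close to 0 from scans of opposite sign, -0.19 at high and 0.18 at low power. The mean was 0.45 ± 0.42 (SD, n = 3 arrays), a 1.37-fold ratio, with a limma 95% interval of 0.021 to 0.89 and an adjusted p of 0.441. Of all tested features, 9.34% had a mean at least as far from 0. The scans of array 1 were far apart, with 0.35 at high and 1.31 at low power, a gap larger than that of 98.3% of features with both scans on that array. On high power scans alone the mean was 0.22, and on low power scans alone 0.69. It was 0.26 without array 1 and 0.68 without array 3.

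TIS11 had the highest single value among the 7 genes. On array 3 it was at 1.55, higher than 99.9% of the features on that array, with 1.48 at high and 1.61 at low power. On array 1 its mean was 0.22, from scans of opposite sign, 0.70 at high and -0.27 at low power. The gap of 0.97 between those scans exceeded that of 98.5% of features. So array 3 showed a high value in both scans, array 1 gave no clear sign and array 2 gave no value. The mean of both arrays was 0.88 ± 0.94 (SD, n = 2 arrays). When features with a value on at least 2 arrays were admitted, 5966 in all, the limma 95% interval of TIS11 was 0.31 to 1.46 and its adjusted p was 0.232, with 6 features called higher. In the fit that left out array 2, which used the same values, the adjusted p of TIS11 was 0.0653. These fits borrow variance from all features. The interval of 0.31 to 1.46 held neither array's value and does not measure the spread between the 2 arrays. The genes on either side of TIS11 on chromosome XII, looked up after its value was seen, were at -0.39 (SLX4) and 0.24 (RKM5) on array 3.

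CTH1, the paralog of TIS11 that acts earlier in iron depletion, had log ratios of -0.15, 0.63 and -0.037 on arrays 1, 2 and 3. Array 2 alone stood above 0, with 0.57 and 0.69 in its scans. The mean was 0.14 ± 0.42 (SD, n = 3 arrays), with a limma 95% interval of -0.29 to 0.58 and an adjusted p of 0.862, and without array 2 it was -0.096. TIS11 was above CTH1 on both arrays where the pair was measured, by 0.37 on array 1 and 1.58 on array 3. The order on array 1 depends on the scan. CTH1 had only a high power value there, -0.15, while TIS11 was at 0.70 at high and -0.27 at low power. The mean difference was 0.98 ± 0.86 (SD, n = 2 arrays), and an exact two-sided sign-flip permutation test gave p = 0.5, the smallest that 2 arrays allow, with 0.75 after adjustment over the 2 pairs compared.

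The mitochondrial carriers MRS3 and MRS4 encode close paralogs with overlapping function, and their log ratios differed in order across the arrays. MRS3 was at 0.70, 0.36 and 0.059 on arrays 1, 2 and 3, above 0 on each of them. Its mean was 0.38 ± 0.32 (SD, n = 3 arrays), a 1.30-fold ratio, with a limma 95% interval of -0.046 to 0.80 and an adjusted p of 0.527. The mean was 0.21 without array 1 and 0.53 without array 3. On array 1 its scans gave 0.45 at high and 0.96 at low power. MRS4, which Aft1 and Aft2 drive, was at -0.75, 0.12 and 0.87. Array 1 was thus well below 0, where 5.03% of features were lower, and array 3 well above it, where 98.8% were lower. The mean of MRS4 was 0.077 ± 0.81 (SD, n = 3 arrays), with a limma 95% interval of -0.43 to 0.58 and an adjusted p of 0.952. It turned to -0.32 without array 3, and to -0.16 when a trend over probe numbers was removed from each array. The value of array 1 rests on the high power scan alone.

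MRS4 minus MRS3 was -1.46, -0.24 and 0.81 on arrays 1, 2 and 3. MRS3 was thus the higher of the pair on arrays 1 and 2, and MRS4 on array 3. MRS4 on array 1 and MRS3 on array 2 had the high power scan alone. The differences on arrays 1 and 2 thus set 1 scan against a mean of both scans. The mean difference was -0.30 ± 1.13 (SD, n = 3 arrays), with an exact two-sided sign-flip permutation p of 0.75, also 0.75 adjusted over 2 pairs, where 3 arrays allow no p below 0.25. On high power scans alone the mean difference was -0.10, and without array 1 it was 0.28. The spread between arrays was larger than the mean difference, and no difference between the carriers could be resolved.

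The vacuolar importer CCC1 was the 1 gene of 6 with a mean below 0. It was at 0.061, -0.37 and -0.63 on arrays 1, 2 and 3. Array 3 was lower than array 2, array 1 lay near 0, and on array 3 only 3.82% of features were lower than CCC1. Both scans were below 0 on arrays 2 and 3, with -0.44 and -0.29 on array 2 and -0.43 and -0.82 on array 3, high power first. The mean was -0.31 ± 0.35 (SD, n = 3 arrays), a ratio of 0.81, with a limma 95% interval of -0.74 to 0.11 and an adjusted p of 0.622. It was -0.15 without array 3 and -0.50 without array 1.

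SMF3, the vacuolar exporter of the Nramp family of metal transporters and a target of Aft1 and Aft2, lay closest to 0. Its log ratios were 0.18, -0.10 and 0.019 on arrays 1, 2 and 3, with scans between -0.23 and 0.28. No array stood apart. The mean was 0.031 ± 0.14 (SD, n = 3 arrays), with a limma 95% interval of -0.38 to 0.44 and an adjusted p of 0.976. With an interval this wide the arrays do not show that SMF3 was unchanged.

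**Figure D2:**
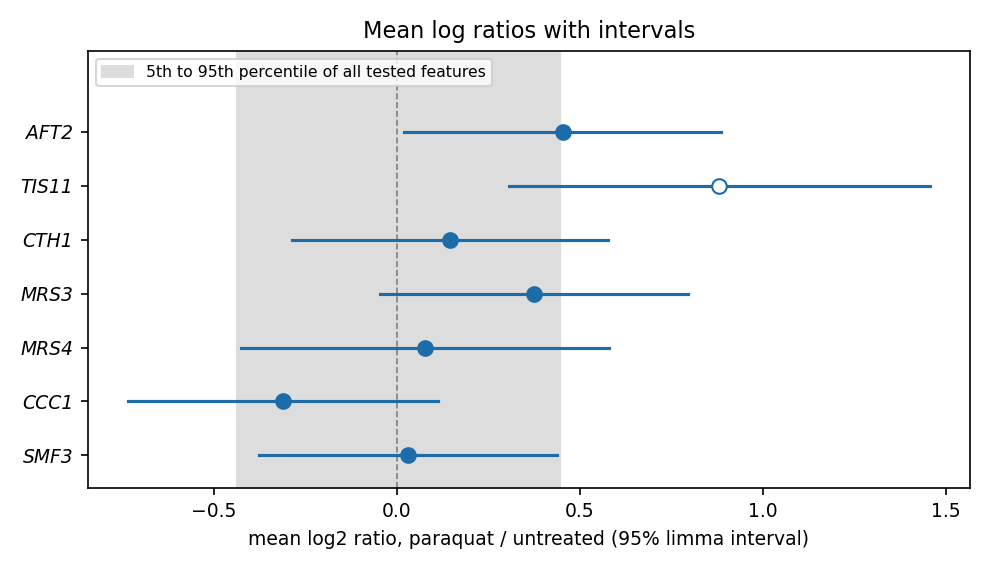
Mean log2 ratio (horizontal axis) of each gene with its 95% limma interval, filled for genes with 3 arrays and open for TIS11, which has 2 arrays and comes from the test that admitted such features. The grey band spans the 5th to the 95th percentile of the means of all 5693 tested features, -0.44 to 0.45, and AFT2, at 0.45, lies at its upper edge.

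The order of the genes changed from array to array. On array 1 AFT2 and MRS3 were higher than 96.3% and 93.7% of the features, and MRS4 was the lowest of the 7. On array 2 CTH1 and AFT2 were higher than 95.5% and 92.8%, and CCC1 was the lowest of the 6 measured there. On array 3 TIS11 and MRS4 were higher than 99.9% and 98.8%, AFT2 was at 51.1%, and CCC1 was again the lowest. Arrays as a whole also differed: across the 5693 tested features, which are not independent replicates, Pearson r was 0.164 between arrays 1 and 2, 0.217 between 1 and 3 and 0.0254 between 2 and 3.

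**Figure D3:**
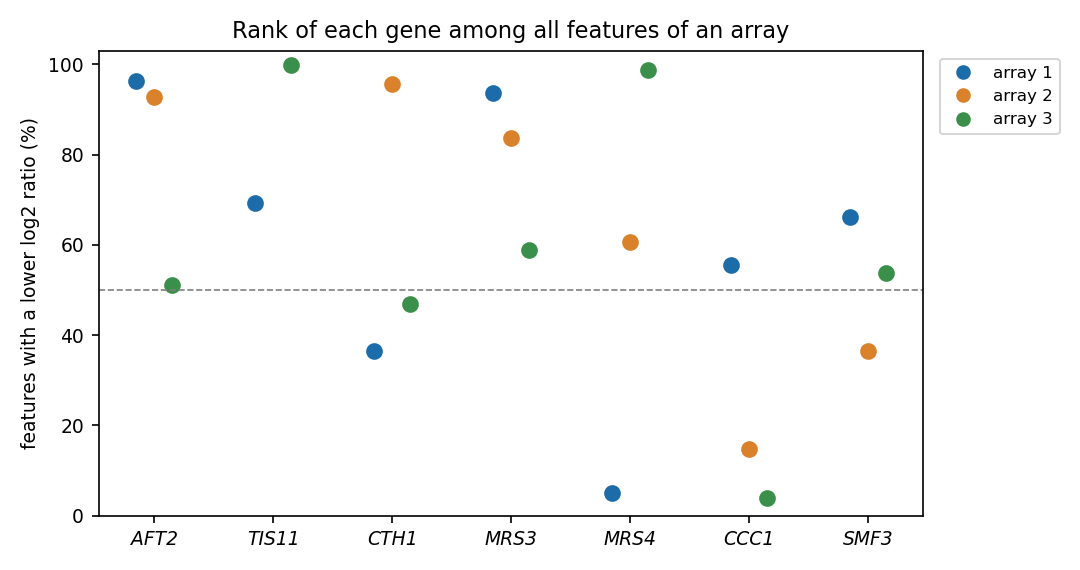
Share of all features with a lower log2 ratio on the same array (vertical axis, %), for each of the 7 measured genes, with 1 point per array. The dashed line marks the middle of the features. MRS4 spans 5.03% to 98.8%, while SMF3 stays between 36.4% and 66.2%.

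Scans of an array did not always give the same sign for these genes. Of 17 pairs of scans, 7 had opposite signs, while over all features with both scans 22.3%, 19.1% and 20.1% did on arrays 1, 2 and 3. All 3 pairs of CCC1, SMF3 and AFT2 were measured. One value each of CTH1, MRS3 and MRS4 rests on the high power scan alone, as the low power scan gave a value for only 40.0%, 45.5% and 66.0% of features on the 3 arrays. The median gap between scans was 0.20, 0.14 and 0.14.

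The other genes driven by Aft1 and Aft2 were set beside TIS11, MRS4 and SMF3, which the same factors drive. This list was written with earlier results of these data known, so its direction is a description and no independent support. Of 30 listed genes, 26 were tested, and the median of their means was 0.38. The mean was above 0 for 23, against 49.2% of all features, and below 0 for 3, FRE1, FET5 and VHT1. An unadjusted limma p under 0.05 was reached by 11 in the higher direction and 0 in the lower, against 10.8% of all features in either direction. In the limma test over all features 1 rose, 0 fell and 25 did not pass, where 0.0351% of all features were called. The gene that rose was FIT2, a cell wall mannoprotein that retains siderophores, at 1.06, 0.82 and 1.74 on arrays 1, 2 and 3 (mean 1.21 ± 0.48, SD, n = 3 arrays; limma adjusted p = 0.0432). Its adjusted p was 0.642 without array 1 and 0.104 without array 3, so the call was lost without either of them. With all 3 arrays the limma adjusted p of FIT2 was 0.0587 after centring, 0.142 after centring and scaling, 0.0647 from the high power scans, 0.0837 when their gaps were filled from the low power ones, 0.741 with unmoderated variance and 0.526 against 1.2-fold. It stayed under 0.05 on low power scans (0.0033), with a value in all 6 scans (1.9e-05) and on at least 2 arrays (0.026). The call also held with robust moderation (0.018), with the trend over probe numbers removed (0.016) and without array 2 (0.00019). FIT1, of the same family, was at 0.52, 0.68 and 1.36, and the siderophore transporter gene ARN1 at 0.24, 0.60 and 1.31. FET3, the multicopper oxidase of high-affinity uptake, was at 0.43, 0.51 and 0.85. None of FIT1, ARN1 and FET3 passed.

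Array 3 held the highest values of the Aft1 and Aft2 list, as it did for TIS11 and MRS4. The list median was 0.15, 0.32 and 0.49 on arrays 1, 2 and 3, and 16, 21 and 25 of 26 genes were above 0. The median over all features was 0.0053, 0.025 and -0.016. On array 3 TIS11 (1.55) and MRS4 (0.87) lay above the list median and SMF3 (0.019) below it. On array 1 TIS11 (0.22) and SMF3 (0.18) lay slightly above it and MRS4 (-0.75) below. On array 2 MRS4 (0.12) and SMF3 (-0.10) both lay below it. Without array 3 the list median was 0.23.

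Messages that Cth1 and Cth2 are known to destabilise had means mostly below 0. This list too was written with earlier results of these data known. Of 18 listed genes, 17 were tested, and the median of their means was -0.25. The mean was below 0 for 16 and above 0 for 1, CYC1, where 49.2% of all features had a mean above 0. In the limma test over all features 0 rose, 0 fell and 17 did not pass, where 0.0351% of all features were called. At an unadjusted limma p under 0.05, 5 were lower and 0 higher, where 10.8% of all features passed in either direction. The aconitase gene ACO1 was at -0.93, -0.070 and -0.80 on arrays 1, 2 and 3, the succinate dehydrogenase gene SDH1 at -0.85, -0.40 and -0.51, LEU1, an iron-sulfur enzyme of leucine synthesis, at -0.70, -0.72 and -0.056, and NFU1, a factor of mitochondrial iron-sulfur cluster transfer, at -0.78, -0.50 and -0.16. Other listed genes changed sign between arrays, such as SDH2 (0.21, 0.24 and -1.21) and CYT1 (-0.66, 0.78 and -1.16). The median of the means was -0.25 without array 1, -0.45 without array 2 and -0.23 without array 3. The list median was -0.40, -0.070 and -0.35 on arrays 1, 2 and 3, and 4, 7 and 2 of 17 genes were above 0. On the same arrays CTH1 was at -0.15, 0.63 and -0.037, and TIS11 was at 0.22 on array 1 and 1.55 on array 3. Some listed genes also serve respiration, and how far these values follow TIS11 or CTH1 was not tested.

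**Figure D4:**
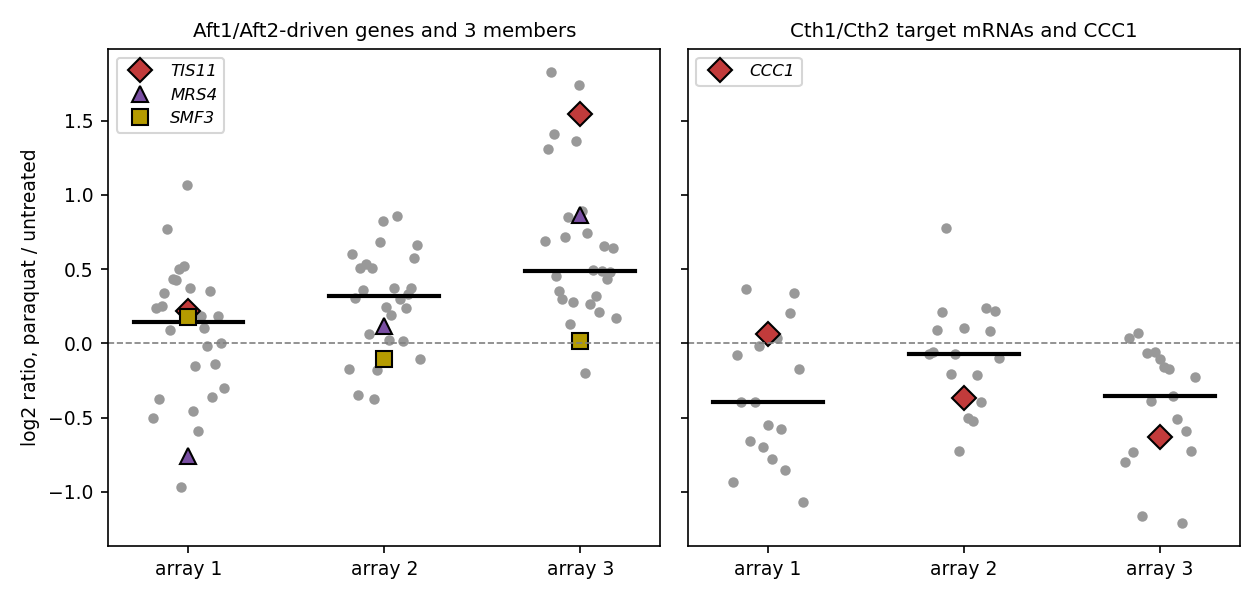
Log2 ratio (vertical axis) of each tested gene on each array for 26 genes driven by Aft1 and Aft2 (left, grey points) and for 17 mRNAs that Cth1 and Cth2 destabilise (right), with black bars at the list medians. Coloured marks show TIS11, MRS4 and SMF3 on the left and CCC1 on the right. The left medians are 0.15, 0.32 and 0.49, with TIS11 at 1.55 on array 3.

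Partners of the iron signal held no called gene. Of 12 genes listed, 5 had a mean above 0 and 7 below, with a median of -0.069. Apart from YAP5, the gene of the high-iron factor, they act on Aft1 and Aft2 or on the signal they read. BOL2 (FRA2), which with the monothiol glutaredoxins holds Aft1 inactive when iron is ample, was at 0.80, 0.16 and 0.97 on arrays 1, 2 and 3 (limma adjusted p = 0.286). The nuclear exporter gene of Aft1, MSN5, was at -0.51, -0.23 and -0.49, and the importer gene PSE1 at -0.39, -0.13 and -0.53. NFS1, the cysteine desulfurase that supplies sulfur for clusters, was at 0.14, 0.32 and 0.24.

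Genes that Yap5 drives alongside CCC1 showed no shared direction, with 2 of 4 means above 0 and 0 called. The copper metallothionein genes CUP1-1 and CUP1-2 had means of 0.28 and 0.44, but they are near-identical copies whose probes may not measure them separately. The wybutosine gene TYW1 and the glutaredoxin gene GRX4 had means of -0.067 and -0.13.

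Other genes of metal transport and handling, listed beside CCC1 and SMF3, were spread around 0. Not all encode transporters: the list also holds the oxidase gene FET5, the reductase gene FRE6 and the transporter-sorting genes BSD2, TRE1 and TRE2. Of 16 tested genes 9 had a mean above 0 and 0 were called, with a median of 0.033 that changed sign in 5 of 11 alternatives. SMF1, a manganese transporter and paralog of SMF3, was at -0.49, -0.66 and -0.31 on arrays 1, 2 and 3, against 0.18, -0.10 and 0.019 for SMF3. COT1, a vacuolar cobalt and zinc transporter, was at 0.77, 0.36 and 0.35. Like FTH1, FET5 and FRE6, it is also in the Aft1 and Aft2 list. FRE6, the vacuolar ferric reductase, had a mean of 0.24, and the vacuolar calcium pump gene PMC1 of -0.29.

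Other genes of mitochondrial transport, listed beside MRS3 and MRS4, had means between -0.24 and 0.24. Not all encode carriers of the family of Mrs3 and Mrs4, as the list also holds MRS2, MMT1 and MMT2. Of 10 genes 5 had a mean above 0 and 0 were called, with a median of -0.035. MTM1, the 1 gene among them with the same sign on all arrays, was at -0.46, -0.095 and -0.0039. The mean of MRS3, 0.38, lay above this range, although at 0.21 without array 1 it would lie within it, and that of MRS4, 0.077, within it. Among 7 tested mRNA decay factors 3 had a mean above 0, 0 were called and the median was -0.066. Of those, DHH1, the RNA helicase through which Cth2 acts, had a mean of -0.34, the exonuclease gene XRN1 of -0.23 and the decapping gene DCP2 of -0.11.

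The genes whose log ratios over the 3 arrays came closest to AFT2 and MRS3, which had the largest means in size of the 6 tested, were found by Euclidean distance among 5218 named features. For AFT2 they were YPL257W (distance 0.031), HTZ1 (0.065) and YJR115W (0.070), and 16 genes lay within 0.2. For MRS3 they were RPA12 (0.046), RPS29B (0.050) and PHS1 (0.056), and 38 genes lay within 0.2. With 3 arrays such likeness is a description of these values.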

How the data were processed

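The deposited values are log2 ratios as taken here. Per the labels' descriptions LOWESS normalization by the authors used spots of flag 0, on each of 6 scans. Both scans of an array were averaged, giving 3 replicates. Probes were named through the platform annotation (5513 of 6912 with 1 symbol, 0 with several, 1399 with none), and 5508 symbols were brought up to date by identifier with RefSeq's R64 gene table, used for names, chromosomes and neighbours. Probes with values identical to 9 decimals counted as 1 feature (78 sets), and 761 probes without a value were left out.

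In R 4.3.3, limma 3.58.1 (lmFit, eBayes) tested the mean against 0, two-sided (degrees of freedom: 2 residual, 19.1 prior), with Benjamini-Hochberg adjustment over 5693 features, at 0.05. The number of arrays limits the precision, and the median standard error was 0.20. Moderation borrows variance from all features, so limma intervals do not measure a gene's own spread between arrays, which the SD gives. The standard error of MRS4 was 0.24 moderated and 0.47 unmoderated, and that of SMF3 0.20 and 0.082. The fit was tested on simulated data with independent normal noise. Those data held no trend over probe numbers and no differences between scans, so they do not test the fit for either. Named genes were the 8 of the set, called genes of 7 lists with the 4 largest means of 1 sign per list, and 3 nearest patterns each for the 2 set genes with the largest means. The flanking genes and those named by exception were chosen after their values were seen. The members and lists were chosen with earlier results of these data known. Alternatives were single scans, centring, scaling, missing-value filters, variance settings, a test against 1.2-fold, removal of a trend over probe numbers and leaving out each array.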

Additional observations from a re-analysis of the deposited data

How the results depend on the processing

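The count of called genes among the set was 0 under each of 14 alternatives, by limma, and AFT2, MRS3 and CCC1 kept their sign under every alternative in which they were tested. TIS11 was at 0.22 without replicate 3 and 1.55 without replicate 1. The sign of CTH1 turned without replicate 2 (-0.096, and up to 0.29 without replicate 1), that of MRS4 without replicate 3 (-0.32, and up to 0.49 without replicate 1) and with the trend over probe numbers removed (-0.16), and that of SMF3 on low power scans alone (-0.030) and without replicate 1 (-0.043). MRS4 minus MRS3 turned on low power scans alone (0.65, from 1 array) and ranged from -0.85 to 0.28 with 1 replicate left out. The count of genes with a mean above 0 was 1 of 3 on low power scans alone and 2 of 3 with a value required in all 6 scans, where fewer genes were tested. With 6 genes tested, that count was 4 without replicate 1, without replicate 3 and with the trend over probe numbers removed. The median of the means was -0.030 on low power scans alone and ranged from 0.099 to 0.24 with 1 replicate left out. Over all features the count of calls was 0 on high power scans alone, centred, centred and scaled, with gaps filled, without variance moderation and against 1.2-fold, 1 with the trend removed, 6 with robust moderation or a value on at least 2 arrays, 18 on low power scans alone, 19 with a value in all 6 scans, and 0 to 70 with 1 replicate left out. The cause of these shifts was not tested. The median of the Aft1 and Aft2 list stayed above 0 and that of the Cth1 and Cth2 list below 0 in all 11 alternatives computed for them, while those of the other 5 lists changed sign in 2 to 5. The difference between AFT1 and AFT2 was not computed, as AFT1 had no named probe. The series has a single group of arrays, each already a ratio of treated to untreated, so no pairing beyond that within an array was available.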
